A study of Mus musculus with 7 samples.

Results

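The genes described are 10 that encode CD antigens, proteins of the leukocyte surface, in 2 subsets of mouse megakaryocyte progenitors (MkPs): Cd24a, Cd96, Cd200, Cd72, Cd69, Cd27, Cd38, Cd93, Cd44 and Cd34. They are 10 of the 21615 genes in the count table, found by symbol. They were picked as antigens that set the subsets apart, with their transcript levels in these libraries already known, so their differences are given as a description with no test. The data bear out that description only in part, since the libraries of the subsets overlapped for Cd34, Cd44, Cd27 and Cd93. They are therefore called the 10 CD antigen genes here.

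MkPs, the committed precursors of platelet-forming megakaryocytes, came from the bone marrow of C57BL/6 mice with no further allele or treatment named in the labels. They were sorted as lineage-negative, CD117+, Sca-1-, CD150+ and CD41+ cells and parted by surface CD48 into CD48hi (4 libraries, replicates 1, 3, 4 and 5) and CD48-/lo (3 libraries, replicates 1, 3 and 4). The study's methods give 1 age range, of adult mice, for its experiments at large and none for these libraries. The sources used here do not give the number of mice behind a library, and nothing in the labels says that libraries came from separate mice, so the spread shown may be technical. Total counts ranged from 48899037 to 69324909 per library. Each CD48hi library was made from more sorted cells (14033 to 20826) than any CD48-/lo library (5348 to 6497), so cell number and subset cannot be told apart. Reads from mitochondrial genes took 2.61, 0.482 and 2.91% of counts in CD48-/lo replicates 1, 3 and 4, against 0.138 to 0.4% across CD48hi. In this share CD48-/lo replicates 1 and 4 stood apart from all other libraries, and replicate 3 lay just above the CD48hi range. Replicate 3 thus differed from the other CD48-/lo libraries, and values without it are given where they matter.

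CD numbers are given to surface molecules that monoclonal antibodies recognise, and such antibodies are the means by which blood progenitors are told apart and sorted. The 10 genes fall into 4 kinds by role. CD96, CD200 and CD72 are receptors or ligands in inhibitory pairs between immune cells. CD24 and CD69 are small glycoproteins known from immature and activated cells. CD27 is a costimulatory receptor of the TNF receptor family, known on lymphocytes and on multipotent progenitors. CD34, CD38, CD44 and CD93 are adhesion molecules or ectoenzymes found on many stem and progenitor cells. The libraries measured transcripts, not protein on the cell surface.

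The bases before the transcription start are shown for 5 of the genes, since it is there that transcription factors act on a start site. Cd200 and Cd96 had the largest differences between the subsets, Cd72 is a further gene whose libraries did not overlap, and Cd34 and Cd44 stood at like levels in both. The sequences are RefSeq promoter windows of the mouse build GRCm38.p6, cut to the 250 bases upstream of the start, and 7 of the 10 genes were matched. Cd24a, Cd93 and Cd69 were not matched. Capitals mark 6-base words of 3 transcription factor families of blood cells, searched on both strands, and none overlaps another in these windows. The GATA words were AGATAA and, with another first base, TGATAA. The ETS words were CGGAAG and, likewise, AGGAAG. The RUNX words were TGTGGT and, with C inside it, TGCGGT.
Cd200 (chr16:45409054-45409303, minus strand): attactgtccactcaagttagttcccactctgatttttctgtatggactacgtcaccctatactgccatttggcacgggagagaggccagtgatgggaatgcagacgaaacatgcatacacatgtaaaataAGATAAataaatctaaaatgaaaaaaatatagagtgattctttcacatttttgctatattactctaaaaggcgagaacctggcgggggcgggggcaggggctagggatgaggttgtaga
Cd96 (chr16:46120249-46120498, minus strand): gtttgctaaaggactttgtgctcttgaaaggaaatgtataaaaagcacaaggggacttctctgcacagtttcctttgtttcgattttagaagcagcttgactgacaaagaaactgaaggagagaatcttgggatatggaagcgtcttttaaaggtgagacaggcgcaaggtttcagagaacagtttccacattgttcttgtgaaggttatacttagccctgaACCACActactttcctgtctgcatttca
Cd72 (chr4:43454627-43454876, minus strand): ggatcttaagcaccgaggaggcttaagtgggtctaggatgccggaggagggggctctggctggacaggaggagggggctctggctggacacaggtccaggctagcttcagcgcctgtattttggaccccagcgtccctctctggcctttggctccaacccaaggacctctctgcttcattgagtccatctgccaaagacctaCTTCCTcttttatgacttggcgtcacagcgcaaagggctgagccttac
Cd34 (chr1:194938571-194938820, plus strand): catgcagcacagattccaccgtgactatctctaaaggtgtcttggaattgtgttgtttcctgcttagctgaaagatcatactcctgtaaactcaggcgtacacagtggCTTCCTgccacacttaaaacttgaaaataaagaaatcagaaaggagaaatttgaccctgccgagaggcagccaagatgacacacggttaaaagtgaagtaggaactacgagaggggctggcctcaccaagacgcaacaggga
Cd44 (chr2:102901666-102901915, minus strand): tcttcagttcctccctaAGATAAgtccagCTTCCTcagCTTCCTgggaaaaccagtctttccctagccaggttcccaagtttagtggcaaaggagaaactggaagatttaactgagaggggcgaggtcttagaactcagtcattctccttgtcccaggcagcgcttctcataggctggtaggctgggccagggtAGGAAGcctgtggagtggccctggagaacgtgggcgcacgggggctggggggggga

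A GATA word stood in the windows of Cd200, Cd44 and Cd38, and in 16.6% of all 32851 RefSeq windows of this length. ETS words stood in those of Cd44 (3 words), Cd72, Cd34 and Cd38 (1 each), against 39.2% of all windows. The Cd38 window (chr5:43868559-43868808, plus strand) is upstream of its RefSeq start only. It lies inside Cd38 as counted here, which begins at 43868553. The RUNX word in the Cd96 window has a share of 18.6% of all windows. The Cd27 window held none of the 3. Of 3 further words searched and not capitalised, TATAAA stood in the Cd96 window (12.4% of all windows) and GGGCGG in that of Cd200 (32.7%), and the C/EBP word TTGCNNCAA in none of the 7 (1.74%). GC content was 41.2% for Cd96 and 42.4% for Cd200, beside a median of 52.4% over all windows. It was 46.4% for Cd34, 48.8% for Cd38, 56.0% for Cd27, 56.4% for Cd44 and 58.0% for Cd72. These matches describe letters in the window, not bound sites.

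All levels below are in CPM, a count scaled to 1e+06 reads of the library total times its TMM factor, in the order CD48hi replicates 1, 3, 4 and 5, then CD48-/lo replicates 1, 3 and 4. Means are given ± SD over the 4 CD48hi or 3 CD48-/lo libraries, and log2 differences are CD48-/lo over CD48hi ± SE from the edgeR fit. Coordinates are those of the table, in mm10.

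Of the 10 genes, 8 had a higher and 2 a lower mean log2 level in CD48-/lo MkPs. All 10 passed the filter on low counts. The libraries of the subsets did not overlap for 6 of them (Cd24a, Cd96, Cd200, Cd72, Cd38 and Cd69), in each case with CD48-/lo higher. Of all tested genes, 14.6% were apart in this way, 7.52% with CD48-/lo higher and 7.06% with it lower. The median log2 difference was 1.28 over the 10 genes and 0.03 over the 16653 tested. At an adjusted p of 0.05 over all genes, edgeR called 0 of the 10 (7 had an unadjusted p under 0.05) and 0.192% of all tested genes (0.0841% higher and 0.108% lower in CD48-/lo). An unadjusted edgeR p under 0.05 was reached by 1394 genes higher and 1477 lower in CD48-/lo, of the 16653 tested. DESeq2 called 5 of the 10 (Cd200, Cd24a, Cd69, Cd72 and Cd96) and 5.86% of its genes (2.67% higher and 3.19% lower). Since the genes were chosen from this contrast, these counts support nothing.

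**Figure D1:**
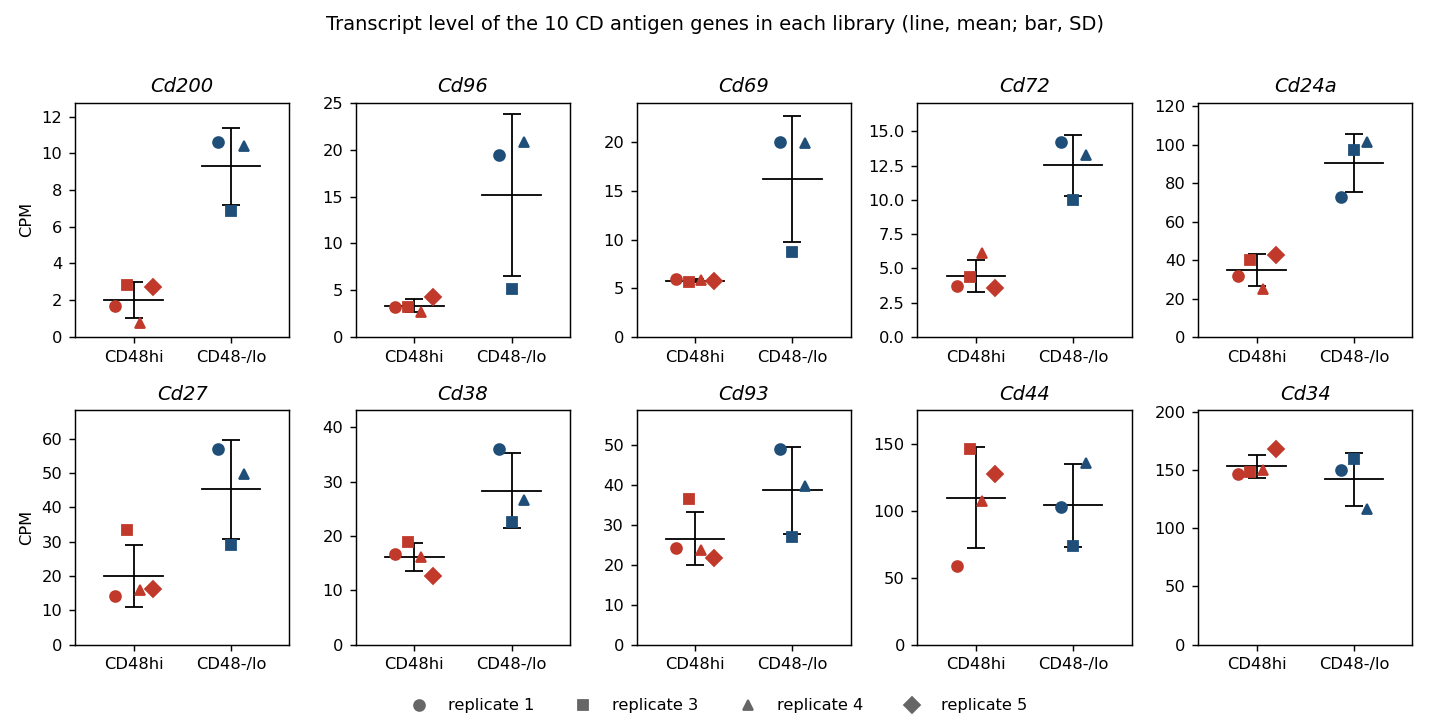
Level of each of the 10 CD antigen genes in CPM (vertical axis, from 0) in the 4 CD48hi and 3 CD48-/lo libraries, with symbols for replicate numbers, a line at the mean and a bar for the SD. The subsets are apart for Cd200, Cd96, Cd69, Cd72, Cd24a and Cd38, while the points overlap for Cd27, Cd93, Cd44 and Cd34.

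Cd200 (chromosome 16, 45382135 to 45409053) encodes an immunoglobulin superfamily protein that signals inhibition to myeloid cells through its receptor CD200R. Its CPM was 1.68, 2.85, 0.732 and 2.71 in the CD48hi libraries and 10.6, 6.87 and 10.4 in the CD48-/lo libraries. The lowest CD48-/lo library stood 2.41-fold above the highest CD48hi library, the widest gap of the 10 genes. Means were 1.99 ± 0.99 and 9.29 ± 2.10 CPM, a 4.66-fold ratio and a log2 difference of 2.22 ± 0.48. The counts behind these values were low, from 38 in CD48hi replicate 4 to 564 in CD48-/lo replicate 1.

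Cd96 (chromosome 16, 46035657 to 46120251) encodes a receptor of T and NK cells for nectin-like proteins. It was at 3.19, 3.16, 2.66 and 4.32 CPM across CD48hi and at 19.5, 5.17 and 20.9 CPM in CD48-/lo MkPs. CD48-/lo replicates 1 and 4 lay far above all other libraries, and replicate 3 lay just above the CD48hi range. The means were 3.33 ± 0.70 and 15.2 ± 8.69 CPM (4.55-fold, log2 difference 2.18 ± 0.46). Set against the CD48hi mean, replicates 1 and 4 were together 6.05-fold higher and replicate 3 was 1.55-fold higher. Without CD48-/lo replicate 3, its lowest CD48-/lo library, the log2 difference was 2.46. Cd96 was then the 1 gene of the 10 that edgeR called, beside 72 of all tested genes. Since Cd96 was chosen from this contrast, that call supports nothing.

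Cd72 (chromosome 4, 43446462 to 43454628) encodes a C-type lectin-like coreceptor known from B cells, where it binds the semaphorin CD100. Its CPM was 3.70, 4.39, 6.10 and 3.61 in CD48hi and 14.2, 10.0 and 13.3 in CD48-/lo libraries. The subsets did not overlap, and replicate 3 was again the lowest of the CD48-/lo libraries. Means of 4.45 ± 1.16 and 12.5 ± 2.21 CPM gave a 2.81-fold ratio and a log2 difference of 1.49 ± 0.33. An exon of Tesk1 overlaps Cd72 on the opposite strand. The sources used here do not say how strand was treated in counting, and Tesk1 itself held only 252 counts over the 7 libraries.

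Markers of lymphoid cells were read beside these 3 genes. Of 8 T and NK cell markers 5 are in the table, and Cd3d stayed between 0 and 0.114 CPM and Cd3g was counted in 1 CD48hi library alone. The summed level of the list was 0.846 to 3.25 CPM across CD48hi and 1.34 to 7.95 CPM in CD48-/lo libraries, mostly from the kinase gene Lck. Of 8 B cell markers 5 are in the table, and their sum ran from 11.6 to 18.8 and from 16.6 to 36.5 CPM. Most of it was Cd79b, while Cd79a was at 0 in 5 libraries and at 0.162 CPM or less in the others. Of the 3 B cell markers tested, Cd79b was higher in CD48-/lo MkPs (log2 difference 1.15 ± 0.39) and Ebf1 and Vpreb1 were lower (-0.75 ± 0.63 and -0.36 ± 0.48), and edgeR called 0 of the 3 (Cd79b had an unadjusted p under 0.05). The part of such cells in the levels of Cd96 and Cd72 was not tested.

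Cd24a (chromosome 10, 43578284 to 43584265) encodes a lipid-anchored, heavily glycosylated peptide known from immature B cells, neutrophils and red cell precursors. It was the most abundant of the genes that did not overlap, with 31.5, 40.3, 24.9 and 42.6 CPM across CD48hi and 73.0, 97.1 and 102 CPM in CD48-/lo libraries. Here CD48-/lo replicate 3 was not the lowest library but close to the highest. Means were 34.8 ± 8.16 and 90.6 ± 15.4 CPM (2.6-fold, log2 difference 1.38 ± 0.29). The summed level of 10 erythroid markers was 264 to 319 CPM across CD48hi and 298 to 660 CPM in CD48-/lo libraries, ranges that overlap. Of the 10, 8 had a higher and 2 a lower mean log2 level in CD48-/lo MkPs. EdgeR called Rhd and Hba-a1 as higher, while the transcription factor gene Klf1 was at 123 ± 41.4 and 75.5 ± 26.4 CPM and the erythropoietin receptor gene Epor at 65.5 ± 11.8 and 47.2 ± 6.66 CPM, the latter with no overlap (log2 differences -0.71 ± 0.36 and -0.47 ± 0.27, neither called). The part of erythroid cells in the Cd24a level was not tested.

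Cd69 (chromosome 6, 129267325 to 129275436) encodes a C-type lectin-like protein known as an early activation antigen, which binds the sphingosine-1-phosphate receptor S1PR1 and keeps it from the surface. Its CPM was 5.97, 5.61, 5.82 and 5.72 in CD48hi and 20.1, 8.75 and 20.0 in CD48-/lo libraries. The CD48hi libraries hardly varied (coefficient of variation 2.66%), while in CD48-/lo replicate 3 fell well short of the other two (40%). Means were 5.78 ± 0.15 and 16.3 ± 6.50 CPM (2.81-fold, log2 difference 1.49 ± 0.35). Replicate 3 alone stood 1.52-fold above the CD48hi mean, and replicates 1 and 4 together 3.46-fold.

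Cd27 (chromosome 6, 125232622 to 125237010) had 14.2, 33.4, 15.9 and 16.3 CPM across CD48hi and 56.8, 29.0 and 49.8 CPM in CD48-/lo libraries. CD48hi replicate 3 exceeded CD48-/lo replicate 3, and the other 5 libraries were apart by subset. The means of 19.9 ± 8.99 and 45.2 ± 14.5 CPM differed 2.27-fold, with a log2 difference of 1.18 ± 0.38.

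Cd38 (chromosome 5, 43868553 to 43912375) encodes an ectoenzyme that breaks down NAD. It was at 16.7, 18.8, 16.1 and 12.7 CPM across CD48hi and at 35.9, 22.5 and 26.6 CPM in CD48-/lo libraries. The subsets did not overlap, but the gap was narrow (1.2-fold between the nearest libraries). Means were 16.1 ± 2.56 and 28.3 ± 6.88 CPM (1.77-fold, log2 difference 0.82 ± 0.29), and without CD48-/lo replicate 1 the log2 difference was 0.50.

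Cd93 (chromosome 2, 148436640 to 148443563) encodes a C-type lectin-like receptor of endothelial, myeloid and stem cells. Its CPM was 24.3, 36.5, 23.8 and 21.7 in CD48hi and 48.9, 27.1 and 39.9 in CD48-/lo libraries. As for Cd27, CD48hi replicate 3 was above CD48-/lo replicate 3. Means were 26.6 ± 6.72 and 38.6 ± 10.97 CPM, and the log2 difference of 0.54 ± 0.31 was under 2 SE. Of 6 endothelial markers 4 are in the table. Their summed level was 27.3 to 55.2 CPM across CD48hi and 9.48 to 27.3 CPM in CD48-/lo libraries. The part of such cells in the Cd93 level was not tested.

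Cd34 and Cd44 did not differ beyond the spread of the libraries. Cd34 (chromosome 1, 194938819 to 194961279), the sialomucin by which progenitors are commonly gated, had 147, 148, 150 and 167 CPM across CD48hi and 150, 160 and 116 CPM in CD48-/lo libraries. All but CD48hi replicate 5 and CD48-/lo replicate 4 lay between 147 and 160 CPM, and the log2 difference was -0.11 ± 0.24. An antisense gene, Gm16897, shares exon sequence with Cd34, with 300 counts in all. Cd44 (chromosome 2, 102811141 to 102901665), the hyaluronan receptor, had 58.7, 146, 108 and 128 CPM across CD48hi and 103, 74.0 and 136 CPM in CD48-/lo libraries. It varied 2.49-fold among the CD48hi libraries alone, and its log2 difference was -0.08 ± 0.35. In bulk libraries a level made by fewer cells with a transcript and one made by less of it in each cell cannot be told apart, for these and all the other genes.

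**Figure D2:**
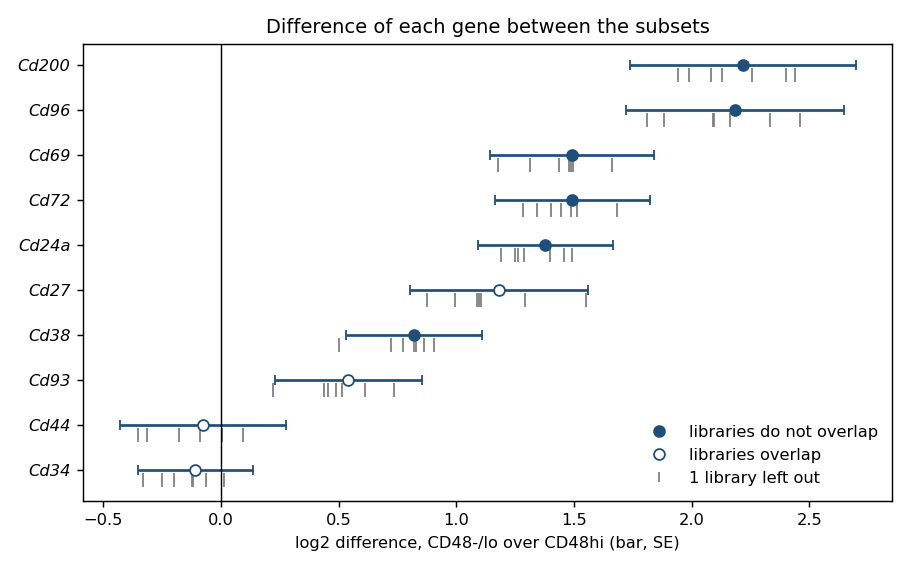
Log2 difference between CD48-/lo and CD48hi (horizontal axis) for each of the 10 genes, with a bar for the SE; filled circles mark genes whose libraries did not overlap, and grey ticks the value with 1 library left out. The circles run from 2.22 for Cd200 to -0.11 for Cd34, and for Cd34 and Cd44 the ticks lie on both sides of 0.

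Levels were compared between genes after division by the length in the table (CPM per kb). In CD48hi MkPs the order of mean levels was Cd34 (21.0), Cd44 (16.2), Cd24a (13.5), Cd27 (8.56), Cd38 (4.13), Cd93 (3.98), Cd96 (1.53), Cd72 (1.30), Cd69 (0.888) and Cd200 (0.600 CPM per kb). In this order neighbours had overlapping library ranges, except between Cd27 and Cd38, between Cd93 and Cd96, between Cd72 and Cd69, and between Cd69 and Cd200. In CD48-/lo MkPs the order was Cd24a (35.1), Cd34 (19.5), Cd27 (19.4), Cd44 (15.4), Cd38 (7.29), Cd96 (6.95), Cd93 (5.78), Cd72 (3.66), Cd200 (2.80) and Cd69 (2.50 CPM per kb). Only Cd24a against Cd34 and Cd44 against Cd38 were apart there. Cd24a was thus in the third place in CD48hi and the first in CD48-/lo MkPs, but in the third in both when levels were not divided by length. Cd27, Cd96 and Cd200 were each 1 place higher in CD48-/lo MkPs, and Cd34, Cd93 and Cd69 1 place and Cd44 2 places lower. Of the 10 genes, 2 (Cd38 and Cd72) held the same place in both subsets.

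**Figure D3:**
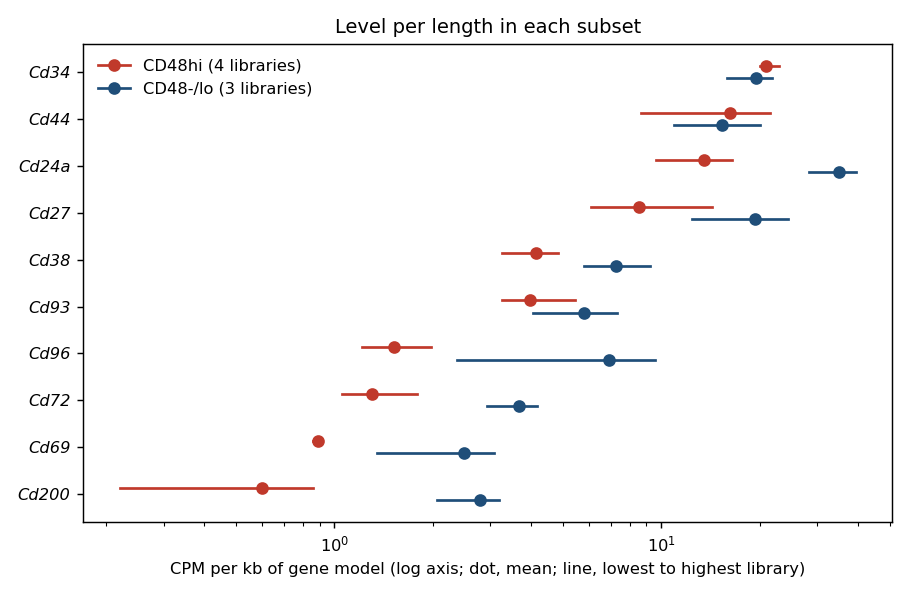
Mean CPM per kb (dot, log axis) and the range from the lowest to the highest library (line) for each gene in CD48hi (red) and CD48-/lo (blue) MkPs. Cd34 leads in CD48hi with 21.0 and Cd24a in CD48-/lo with 35.1 CPM per kb.

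CD48-/lo replicate 3 was the lowest of the 3 CD48-/lo libraries for 8 of the 10 genes. It was the lowest for 38.4% of all tested genes and for 25 of the 47 other CD antigen genes tested (53.2%). The share of reads from mitochondrial genes was also low in this library (0.482%, against 2.61 and 2.91%), and its part in these levels was not tested. The exceptions were Cd24a and Cd34. Set against the CD48hi mean, replicate 3 was at 3.44 for Cd200, 2.79 for Cd24a and 2.25 for Cd72, but at 1.45 for Cd27, 1.02 for Cd93 and 0.672 for Cd44. Among CD48hi libraries, replicate 3 was the highest for 5 of the 10 genes (26.8% of all tested genes).

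**Figure D4:**
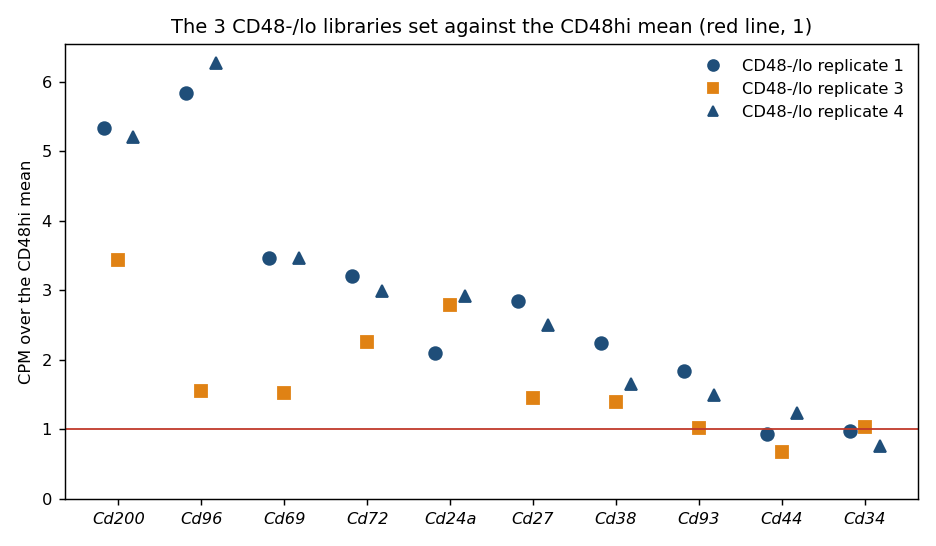
CPM of each CD48-/lo library divided by the CD48hi mean of the gene (vertical axis; the red line is 1), with replicate 3 in orange. Replicate 3 lies below both other libraries for 8 of the 10 genes, farthest for Cd96 (1.55 against 6.05 for the mean of replicates 1 and 4).

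Known ligands, relatives and partners of the 10 antigens were read next, from a list of 34 genes of which 28 are in the table and 25 were tested. Their levels were not used to choose the 10, but the list was drawn up with earlier results of these data known. Of the 25, 11 had a higher and 14 a lower mean log2 level in CD48-/lo MkPs, with a median log2 difference of -0.06 beside 0.03 over all tested genes. EdgeR called 0 of them, beside 0.192% of all genes. An unadjusted edgeR p under 0.05 was reached by 8, 4 in each direction. Of all 16653 tested genes, 1394 reached it as higher and 1477 as lower in CD48-/lo. DESeq2 called 4, beside 5.86% of its genes: Emcn and Spp1 higher, S1pr1 and Lgals1 lower.

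Of the listed genes tied to CD69, S1pr1 and Lgals1 were lower in CD48-/lo MkPs, and Clec2d, with low counts, was higher. Among CD48-/lo libraries, replicate 3 had the least Cd69 (8.75 CPM) but the middle value of S1pr1 and of Lgals1. A link between these transcript levels was not tested. S1pr1, the receptor that CD69 holds inside the cell, was at 55.5, 43.7, 35.7 and 37.6 CPM across CD48hi and at 15.4, 15.7 and 22.3 CPM in CD48-/lo libraries. The subsets did not overlap and the log2 difference was -1.28 ± 0.30 (edgeR adjusted p = 0.108). Lgals1, which encodes galectin-1, a lectin reported to bind CD69, was at 19.6, 43.0, 15.8 and 10.5 CPM across CD48hi and at 2.77, 3.24 and 3.72 CPM in CD48-/lo libraries. Every CD48hi library was above every CD48-/lo library, with a log2 difference of -2.78 ± 0.50 (edgeR adjusted p = 0.0541). It passed the edgeR threshold with RLE scaling, with the stricter filter and with the replicate block. Clec2d, another C-type lectin-like gene of the region of chromosome 6 that holds Cd69, was at 0.464 ± 0.0767 and 1.23 ± 0.0934 CPM. The subsets did not overlap for it (log2 difference 1.40 ± 0.59, edgeR adjusted p = 0.268).

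Relatives of CD34 did not follow Cd34. Emcn, which encodes the sialomucin endomucin, was at 0.525, 0.919, 1.00 and 0.893 CPM across CD48hi and at 10.2, 1.37 and 5.38 CPM in CD48-/lo libraries (log2 difference 2.76 ± 0.62, edgeR adjusted p = 0.101). The lowest CD48-/lo value was again that of replicate 3. Without that library edgeR called Emcn, beside 72 of all tested genes. Podxl, which encodes podocalyxin, of the CD34 family, was at 1.51 ± 0.97 and 4.39 ± 1.36 CPM with no overlap (log2 difference 1.54 ± 0.54, adjusted p = 0.223). Cd34 itself lay at 153 ± 9.75 and 142 ± 22.6 CPM.

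Partners of CD44 went in both directions, and edgeR called none of those tested. The genes of the ezrin, radixin and moesin proteins that tie CD44 to the cytoskeleton had log2 differences of -0.49 ± 0.34 (Ezr), -0.66 ± 0.33 (Rdx) and -0.22 ± 0.29 (Msn), with adjusted p of 0.473, 0.334 and 0.730. Spp1, which encodes the CD44 ligand osteopontin, was low but did not overlap, with 0.447, 0.294, 0.193 and 0.504 CPM across CD48hi and 1.47, 1.22 and 2.26 CPM in CD48-/lo libraries (adjusted p = 0.180). The hyaluronidase genes Hyal1 and Hyal2 had log2 differences of 0.47 ± 0.64 and -0.35 ± 0.30. Has1, a hyaluronan synthase gene, was counted in 1 CD48-/lo library only and not tested.

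The other receptor and ligand pairs showed no partner that passed either test. For CD72, the ligand gene Sema4d was at 126 ± 61.6 CPM for CD48hi against 62.0 ± 4.95 CPM for CD48-/lo (adjusted p = 0.250), and Ptpn6, the phosphatase that CD72 recruits, at 190 ± 58.8 and 177 ± 11.9 CPM. For CD200, the receptor gene Cd200r1 was at 4.34 ± 3.50 and 6.48 ± 2.20 CPM (adjusted p = 0.660). For CD96, Cd226, the activating receptor for the same ligands, was at 2.16 ± 1.34 and 3.39 ± 2.75 CPM. For CD24, Selp, which encodes P-selectin, was at 30.2 ± 9.72 and 36.7 ± 15.1 CPM. For CD27, the adaptor genes Traf2, Siva1 and Traf5 had log2 differences of -0.18 ± 0.30, -0.06 ± 0.29 and -1.16 ± 0.43, and Traf5 did not overlap (adjusted p = 0.240). For CD38, Pecam1, its counter-receptor, was level (54.2 ± 9.70 and 56.2 ± 8.17 CPM), as was Thbd, a relative of CD93 (17.0 ± 7.50 and 17.7 ± 4.15 CPM).

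Other rows of the table with a CD antigen symbol were listed as a comparison that uses no values, leaving out Cd48, the sort marker, and genes named for intracellular partners of CD antigens. There were 61, of which 47 were tested. They take in 3 pseudogenes, among them Cd9-ps and Cd63-ps, whose reads cannot be told apart with certainty from those of Cd9 and Cd63. Of these 28 had a higher and 19 a lower mean log2 level in CD48-/lo MkPs, with a median log2 difference of 0.53. Without the 3 pseudogenes, an alternative added after the data were seen, 26 of 44 were higher and 18 lower, with a median of 0.53. The subsets did not overlap for 4 that were higher and 2 that were lower, beside 7.52% and 7.06% of all tested genes, a share near that background. EdgeR called 0 of the 47 (12 had an unadjusted p under 0.05, 8 of them higher in CD48-/lo), beside 0.192% of all genes. Of all 16653 tested genes, 1394 had such an unadjusted p as higher and 1477 as lower in CD48-/lo. Of the list of 61, DESeq2 called Cd248, Cd36 and Cd82 as higher and Cd209a, Cd300lb and Cd7 as lower, beside 5.86% of its genes. Cd7 was not among the 47 that edgeR tested.

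Of the better counted, Cd82, a tetraspanin gene, was at 6.94, 6.29, 5.53 and 4.01 CPM across CD48hi and at 8.17, 18.1 and 14.2 CPM in CD48-/lo libraries (log2 difference 1.25 ± 0.36). Here replicate 3 was the highest library. Cd302, a C-type lectin gene, was at 2.66 ± 1.09 and 6.06 ± 0.45 CPM (log2 difference 1.19 ± 0.41), and Cd163, the scavenger receptor gene for haptoglobin and haemoglobin, at 8.27 ± 2.04 and 4.94 ± 1.59 CPM (-0.74 ± 0.37). The subsets did not overlap for any of these 3 genes.

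The following were chosen after their values were seen. Cd248, which encodes endosialin, of the family of CD93, had 0 counts in CD48hi and 102 in CD48-/lo libraries, at least 51-fold higher against a floor of 3 counts over the group. Cd36, the fatty acid and thrombospondin receptor gene of platelets and red cell precursors, had 5 and 110 counts (33-fold per total). Cd300lb, an activating myeloid receptor gene, had 287 counts in CD48hi and 0 in CD48-/lo libraries (at least 63.7-fold lower), though CD48hi replicate 3 also had none. Cd209a, a lectin gene of dendritic cells, had 103 and 0 (at least 22.9-fold lower). Cd9, a tetraspanin gene of platelets, was at 227, 637, 231 and 272 CPM across CD48hi and at 799, 511 and 808 CPM in CD48-/lo libraries. As for Cd27, CD48hi replicate 3 stood above CD48-/lo replicate 3. Cd79b showed the same split within CD48-/lo, with 34.4, 13.5 and 34.8 CPM.

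**Figure D5:**
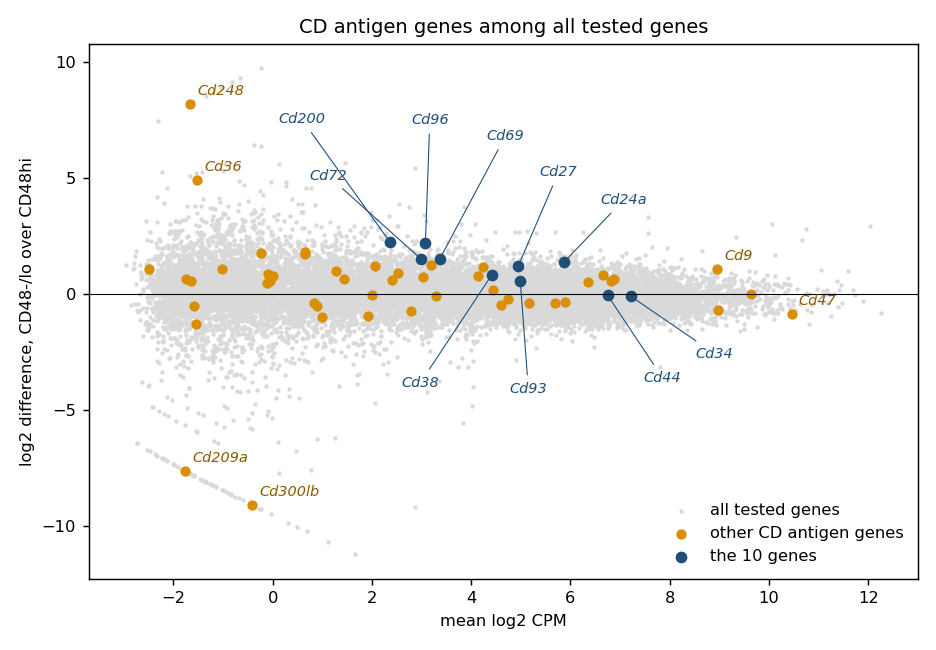
Log2 difference, CD48-/lo over CD48hi, against mean log2 CPM for the 16653 tested genes (grey), the 47 other CD antigen genes (orange) and the 10 genes (blue). The 10 genes lie between -0.11 and 2.22 in a cloud whose spread narrows with level; Cd248, Cd36, Cd209a and Cd300lb are far apart but at very low levels.

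Cd200 and Cd96 lie on the same strand of chromosome 16, 626603 bases apart, with 8 genes of the table between them. Of the 6 that were tested, 0 were apart between the subsets, beside 14.6% of all tested genes. They included Gcsam, a germinal centre signalling gene (4.68 ± 0.56 and 8.60 ± 3.70 CPM), and Abhd10 (109 ± 28.6 and 86.8 ± 24.8 CPM).

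The genes of the gate were read as a check of the labels. Cd48 was at 15.8, 43.0, 23.6 and 33.3 CPM across CD48hi and at 14.0, 4.98 and 11.4 CPM in CD48-/lo libraries, which did not overlap, with CD48-/lo replicate 3 the lowest (log2 difference -1.51 ± 0.45, edgeR adjusted p = 0.181, DESeq2 adjusted p = 0.0147). Kit, Slamf1 and Itga2b, for CD117, CD150 and CD41, were counted throughout, and Ly6a, for Sca-1, was at or under 1.17 CPM. Among lists of other cell types, summed levels were lower in CD48-/lo for granulocyte progenitors (57.1 to 140 against 381 to 557 CPM), for basophils and mast cells (169 to 232 against 263 to 783 CPM, mostly Gata2, which MkPs also express) and for monocytes and dendritic cells (8.64 to 17.3 against 34.5 to 102 CPM), and higher for stem cells (214 to 234 against 89.8 to 183 CPM). Mcpt8, a basophil protease gene, was at 0 in CD48-/lo replicates 1 and 3. Of the basophil and mast cell markers tested, 1 of 6 was higher in CD48-/lo, Fcer1a (4.94 ± 0.97 and 10.6 ± 7.19 CPM). So were 1 of 8 for monocytes and dendritic cells, H2-Aa (1.95 ± 1.31 and 6.04 ± 4.43 CPM), and 1 of 6 for granulocyte progenitors, Ms4a3 (15.0 ± 3.26 and 17.5 ± 6.75 CPM). The part of these cells in the levels of Cd27, Cd34, Cd38, Cd44 and Cd93, which stem and progenitor cells share, was not tested.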

How the data were processed

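RNA of sorted MkPs was primed on poly(A) tails, amplified with template switching and tagmented. By the submitters' processing notes, the authors used FastQC for quality, GSNAP (2020-12-16) for alignment to mm10 and featureCounts (2.0.1) for counts of unique alignments per gene. The deposited values used are raw counts, with no normalization, for 21615 genes with a row sum of at least 11. Other deposited tables were not used. Gene length is the authors' column. The sources used here do not say how strand was treated.

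Counts were tested in edgeR 4.0.16 (R 4.3.3, limma 3.58.1): filterByExpr, TMM, quasi-likelihood F test, Benjamini-Hochberg adjustment over 16653 genes (99.95% of counts), threshold 0.05, prior count 0.125 and SE from the F statistic. DESeq2 1.42.0 was an alternative. On simulated data of 16141 genes for this comparison, edgeR recovered 1, 33, 49 and 49 of 50 genes changed 2-, 4-, 8- and 16-fold and called 6 unchanged ones. Groups and replicate numbers came from the labels.

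The 10 genes and all lists were chosen with earlier results of these data known. Genes named are the 10, the gate genes, other CD antigen genes called or, where mean log2 CPM reached 1, not overlapping, partners with a mean of at least 1 CPM, and markers at 0 or highest in their list. Markers that went against most of their list are named too. Exceptions are said to be chosen after their values were seen. The values of 1 partner are not reported here.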

Additional observations from a re-analysis of the deposited data

Results flagged for a closer look

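In groups of 4 libraries, the highest or lowest value of a gene was set against the others by Dixon's ratio at its 95% critical value, which chance passes in about 1 of 20 groups. Of the 10 genes, 2 passed in CD48hi MkPs. Cd27 in CD48hi replicate 3 was at 33.4 CPM, beside 14.2 to 16.3 CPM in the other CD48hi libraries, and without it the subsets would not overlap. Cd34 in CD48hi replicate 5 was at 167 CPM, beside 147 to 150 CPM. The CD48-/lo group, with 3 libraries, was not examined in this way.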

How the results depend on the processing

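Over all alternatives the 10 genes gave 140 log2 differences, of which 138 moved by less than the spread between libraries and 135 kept their sign. The 2 that moved were Cd38 without CD48-/lo replicate 1 (0.50) and Cd34 without CD48-/lo replicate 3 (-0.33). The number of genes called among all tested was 57 with RLE scaling, 10 with no filter, 64 with the stricter filter (1 CPM in 3 libraries), 1028 with DESeq2, and from 1 (without CD48hi replicate 3) to 72 (without CD48-/lo replicate 3) when 1 library was left out, against 32. Of the other CD antigen genes, DESeq2 called 6. Of the partners, RLE scaling, the stricter filter and the replicate block each called 1 (Lgals1) and DESeq2 called 4. With 1 library left out the number of partners called ranged from 0 to 1 (Emcn without CD48-/lo replicate 3). Without division by length, 6 rather than 2 of the 10 genes held the same place in both subsets. DESeq2 gave Cd48 an adjusted p of 0.0147. Whether the replicate numbers pair the libraries is not stated in the labels. Deviations of same-numbered libraries from their subset means correlated at -0.152, -0.265 and -0.086. With so few libraries centred on their own mean, these values cannot decide the question. With the replicate block, 29 genes were called on replicates 1, 3 and 4, against 4 on the same libraries with no block, and 0 of the 10 with the block. Depth limits mainly Cd200, with 38 counts in its lowest library.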
